A study of Mus musculus with 8 samples.

Results

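The mevalonate arm of cholesterol synthesis was followed here through 7 enzyme genes, Acat2, Hmgcs1, Mvk, Pmvk, Mvd, Idi1 and Fdps, which were chosen by symbol in pathway order from 55487 gene rows. The data are RNA sequencing of polyadenylated transcripts from whole mouse sciatic nerve, taken at postnatal day 6, when Schwann cells, the glia of peripheral nerve, are making myelin. Control nerves (Ctrl, 4 libraries) came from CNP+/+ Cdk7lox/lox mice, and mutant nerves (CNP-Cdk7cKO, 4 libraries) from CNPcre/+ Cdk7lox/lox mice. Both groups therefore carried 2 floxed alleles of Cdk7, the cyclin-dependent kinase of the transcription factor TFIIH, and they differed in a Cre allele at Cnp, a gene of myelinating glia. The Ctrl mice carried no Cre, and the mutant mice had 1 unmodified Cnp allele, so the loss of Cdk7 and the Cre allele at Cnp cannot be told apart. The Cre was used to remove Cdk7 from Schwann cells, while RNA of every cell type of the nerve was sequenced. The labels do not say whether the libraries came from separate animals, and p-values then measure only the spread between these libraries.

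Cells build cholesterol from acetyl-CoA, and the mevalonate arm is the stretch of that pathway that ends at farnesyl diphosphate, an isoprenoid shared by sterols and by prenylated proteins. Acat2 joins acetyl-CoA units, Hmgcs1 makes HMG-CoA, Mvk and Pmvk phosphorylate mevalonate, Mvd makes isopentenyl diphosphate, Idi1 isomerises it and Fdps condenses the units into farnesyl diphosphate. The genes of the pathway are textbook targets of the SREBP transcription factors, which act with NF-Y and Sp1, and myelin is a membrane rich in cholesterol that Schwann cells largely synthesise themselves. No member acts between Hmgcs1 and Mvk.

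The promoters are shown first as a description, and whether their motifs bear on the fold changes was not tested. RefSeq promoters on GRCm38.p6, each running from 250 bases before to 50 bases after a start site, matched 6 of the 7 members (all but Fdps) with 7 start sites, since Pmvk had 2. They were searched on both strands for a sterol regulatory element core (TCACNCCAC), the NF-Y box (CCAAT) and the GC box that Sp1 can bind (GGGCGG). In these promoters no match of one motif overlapped a match of another, and a match is a description, not a binding site. Below are Hmgcs1 (chr13:119690101-119690350, plus strand), Mvk (chr5:114444061-114444268, plus strand) and Mvd (chr8:122443423-122443672, minus strand), read 5′ to 3′ up to the base before the start site. They were chosen because Hmgcs1 holds the sterol element, Mvk holds most NF-Y boxes and Mvd holds an NF-Y box on each strand. Capitals mark the sterol element and the NF-Y boxes, which read ATTGG where the box lies on the other strand. The Mvk sequence starts after the last base of an exon of its neighbour Mmab.
Hmgcs1: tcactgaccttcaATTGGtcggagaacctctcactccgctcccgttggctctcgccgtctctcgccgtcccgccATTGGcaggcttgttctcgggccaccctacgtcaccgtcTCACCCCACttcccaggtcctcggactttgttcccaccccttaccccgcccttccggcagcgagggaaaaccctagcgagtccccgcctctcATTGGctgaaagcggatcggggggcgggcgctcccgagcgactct
Mvk: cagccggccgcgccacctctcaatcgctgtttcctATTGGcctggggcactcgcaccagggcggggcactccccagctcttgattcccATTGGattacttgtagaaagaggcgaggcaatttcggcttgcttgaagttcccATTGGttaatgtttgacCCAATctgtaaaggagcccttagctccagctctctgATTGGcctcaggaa
Mvd: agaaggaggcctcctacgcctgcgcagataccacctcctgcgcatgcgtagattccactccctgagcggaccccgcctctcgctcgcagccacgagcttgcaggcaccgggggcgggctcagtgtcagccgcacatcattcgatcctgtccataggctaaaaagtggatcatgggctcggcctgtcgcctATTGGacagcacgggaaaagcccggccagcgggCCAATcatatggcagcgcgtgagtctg

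The sterol element was found in 1 of the 7 member promoters, Hmgcs1, as TCACCCCAC from -137 to -129, against 1.24% of the 32851 promoters in the RefSeq table. The same promoter held 4 NF-Y boxes, of which 3 are in the stretch shown, and the combination of both motifs occurred in 0.441% of all promoters. NF-Y boxes were found in 5 of the 7 member promoters against 37.4% of all promoters. Mvk had 5 boxes, and Mvd and Idi1 had 2 each, so that 4 of the 7 held 2 or more, against 11.7% of all promoters. GC boxes were found in 5 of the 7 member promoters, against 35.7% of all. Acat2 had a GC box and no NF-Y box, while the downstream Pmvk start had none of the 3 motifs. Member promoters thus differed among themselves in motif content, and the plot of motif positions shows where the matches lie.

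**Figure D1:**
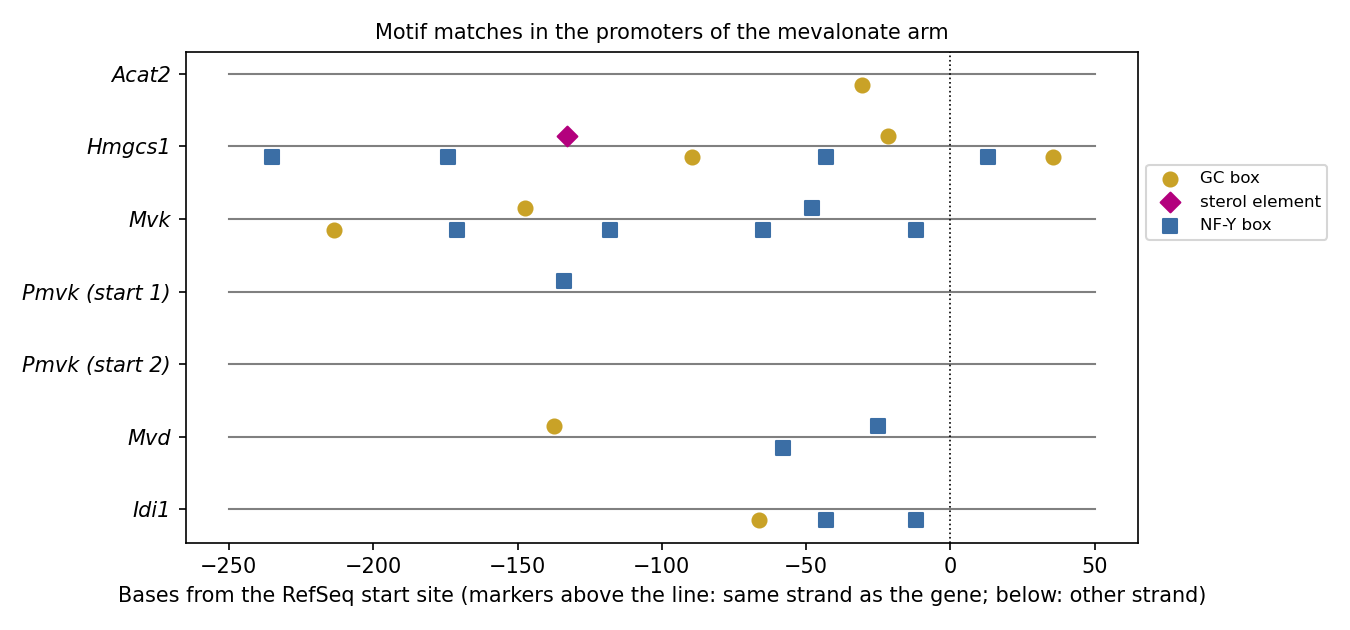
Matches to the 3 motifs along 7 RefSeq promoters of 6 members; the x axis is the distance in bases from the start site (dotted line), and markers above or below each line are on the gene's strand or the other one. Hmgcs1 carries the sterol element and 4 NF-Y boxes, and Mvk carries 5 NF-Y boxes.

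The libraries held between 16897242 (Ctrl 1) and 21527891 (Ctrl 3) estimated counts. Cdk7 stood at 21.5 ± 0.70 CPM (counts scaled to library size; SD, n = 4) in Ctrl and 11.6 ± 1.35 in CNP-Cdk7cKO (edgeR quasi-likelihood, Benjamini-Hochberg adjusted p = 0.000181), and Cnp at 3134 ± 137 and 1389 ± 61.6 CPM (edgeR, adjusted p = 3.98e-07). Schwann cell markers were present in every library. The summed level of 8 pan-Schwann genes was 3964 to 4392.5 CPM in Ctrl and 3159 to 3324 CPM in CNP-Cdk7cKO. By the edgeR test 5 of the 8 fell, where 6.60% of all tested genes fell and 5.07% rose. The same shares stand beside the marker counts that follow. Summed skeletal muscle markers ranged from 646 CPM (Ctrl 1) to 6404 CPM (Ctrl 4) in Ctrl and from 117 to 797 CPM in CNP-Cdk7cKO, and 17 of 20 fell. Fibroblast and perineurial markers summed to 29494 to 33535 CPM in Ctrl and 34363 to 38744 CPM in CNP-Cdk7cKO (2 of 10 rose), and macrophage markers to 401 to 498 and 481 to 577 CPM (5 of 9 rose). Adipocyte markers summed to 110 to 239.6 CPM in Ctrl and 80.1 to 137 CPM in CNP-Cdk7cKO, and of 6 tested 1 fell, Car3, which muscle also expresses; the defining marker Adipoq was at 0.78 to 4.65 CPM and 0.207 to 3.78 CPM. Endothelial (7 genes) and erythroid (7 genes) sums overlapped between the groups. By Xist and 4 Y-linked genes, Ctrl 2, 3 and 4 were male and the other 5 libraries, among them Ctrl 1, female.

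Transcripts of all 7 members were lower in the mutant nerves. All 7 had enough counts to be tested, all 7 fell, and in all 7 the highest CNP-Cdk7cKO library lay below the lowest Ctrl library. Over the whole table edgeR called 6.60% of 15056 tested genes lower and 5.07% higher, and 9.51% had CNP-Cdk7cKO values wholly below the Ctrl values. Over the 7 the median log2 fold change was -0.63, beside 0.00309 over all tested genes, and the members spanned -0.80 to -0.28. Because the nerves were measured in bulk, fewer cells of a type and less RNA per cell cannot be told apart. The plot of member levels by library shows the separation gene by gene.

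**Figure D2:**
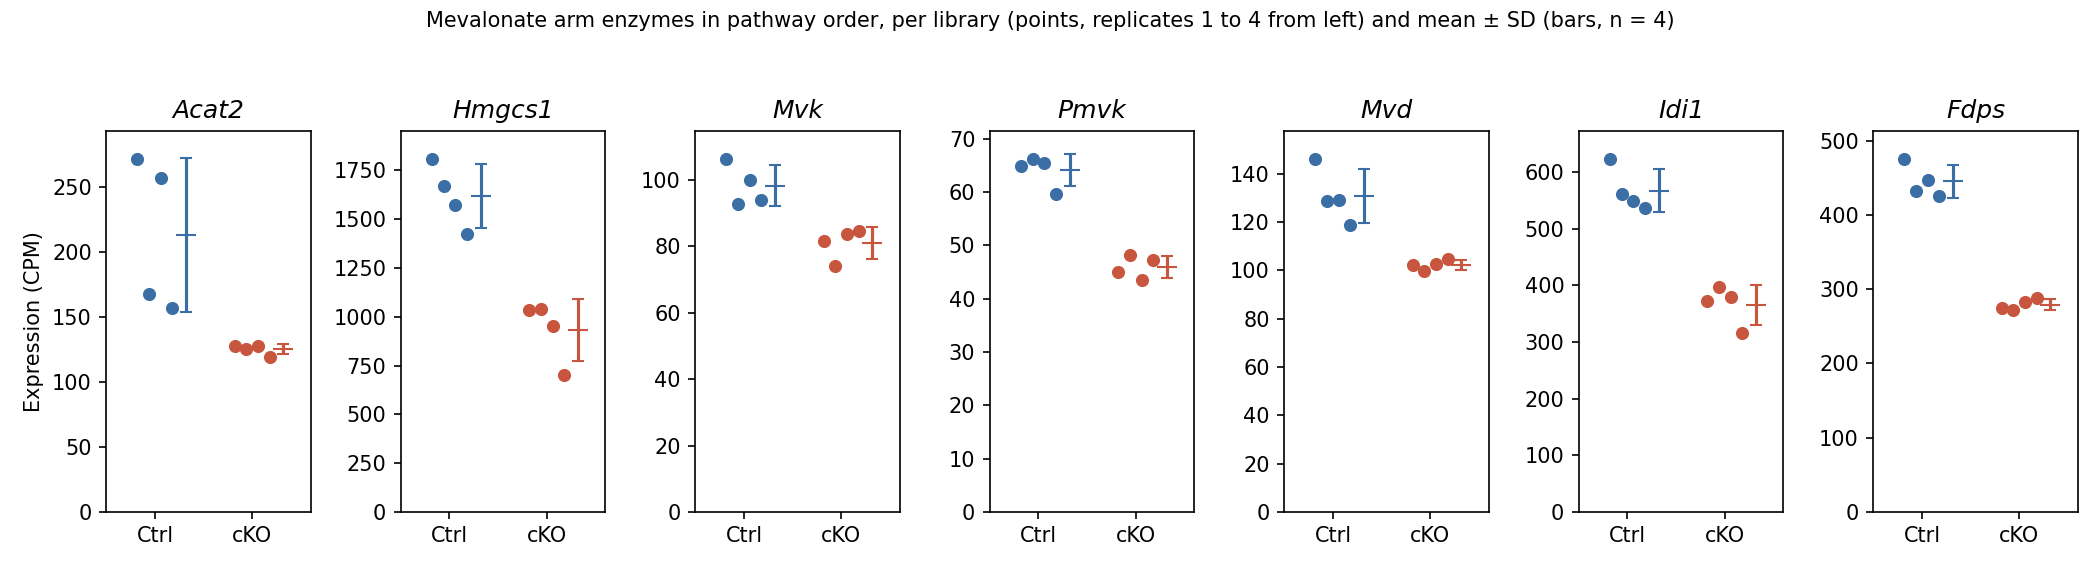
Expression of the 7 enzymes in CPM (y axes from 0, one scale per gene) in 4 Ctrl and 4 CNP-Cdk7cKO (cKO) libraries; points are libraries and bars are mean ± SD. No CNP-Cdk7cKO point reaches the lowest Ctrl point, and the Acat2 controls split into a high and a low pair.

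The steps that make HMG-CoA had the lowest estimated fold changes of the arm, an order that their errors do not settle. The 95% interval of Acat2 overlapped those of Hmgcs1, Pmvk, Mvd, Idi1 and Fdps, and that of Hmgcs1 overlapped those of Acat2, Pmvk, Idi1 and Fdps. Without Ctrl 1 Acat2 (-0.63) lay level with Fdps (-0.64), and without CNP-Cdk7cKO 4 Hmgcs1 (-0.68) lay level with Fdps (-0.69). Hmgcs1, the cytosolic HMG-CoA synthase (ENSMUSG00000093930, GRCm38 chr13:119690379-119708260, plus strand), stood at 1808, 1669, 1571 and 1423 CPM across Ctrl 1 to 4 and at 1035, 1038, 954 and 701 CPM across the mutants, CNP-Cdk7cKO 1 to 4. CNP-Cdk7cKO 4 was the lowest library by a wide step, and the lowest control was well above all mutants. Hmgcs1 fell from a mean of 1618 ± 162 CPM to 932 ± 159 CPM (n = 4 a group, SD), which is -0.80 ± 0.11 in log2 (SE; edgeR adjusted p = 0.00184), which leaves 57.6% of the Ctrl level (95% interval 48.3 to 68.7%).

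Acat2, the cytosolic acetoacetyl-CoA thiolase (ENSMUSG00000023832, chr17:12942890-12960747, minus strand), stood at 271, 168, 257 and 156 CPM across Ctrl 1 to 4 and at 128, 125, 127 and 119 CPM across the mutants. Ctrl 1 and 3 were high and Ctrl 2 and 4 were much nearer the mutants, which lay close together. Summed muscle markers were 646 and 1260 CPM in Ctrl 1 and 3, and 2304 and 6404 CPM in Ctrl 2 and 4. Whether the split is linked to them was not tested. The coefficient of variation was 27.8% in Ctrl and 3.07% in CNP-Cdk7cKO, the former the largest of any member in either group. Acat2 fell from a mean of 213 ± 59.3 CPM to 125 ± 3.83 CPM (n = 4 a group, SD), which is -0.77 ± 0.16 in log2 (edgeR adjusted p = 0.0101), or 58.6% of Ctrl (46.1 to 74.5%). With the muscle markers as a covariate its log2 fold change was -1.19 (edgeR adjusted p = 0.0096). Acat3, a close relative whose gene lies beside Acat2 on the same strand, had too few counts to be tested, with at most 0.657 CPM (Ctrl 3). Estimated counts of Acat2 were not whole numbers in any library, as happens where reads are divided between similar transcripts, so its level rests in part on that division. The same held for Idi1 and Fdps, while counts of Hmgcs1, Pmvk and Mvd were whole in all 8 libraries.

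The kinases and the decarboxylase in the middle of the arm had smaller estimated fold changes. Mvk, mevalonate kinase (ENSMUSG00000041939, chr5:114444269-114460591, plus strand), stood at 106, 92.8, 99.96 and 94.1 CPM across Ctrl 1 to 4 and at 81.7, 74.2, 83.7 and 84.8 CPM across the mutants. The groups did not overlap, but the lowest control and the highest mutant were close. Mvk fell from a mean of 98.3 ± 6.24 CPM to 81.1 ± 4.75 CPM (n = 4 a group, SD; log2 fold change -0.28 ± 0.06; edgeR adjusted p = 0.0128), or 82.5% of Ctrl. That call ended when Xist was a covariate (log2 -0.39, edgeR adjusted p = 0.0531) and when only the 5 female libraries were compared (log2 -0.39, edgeR adjusted p = 0.103), and with the muscle covariate the log2 fold change was -0.43 (edgeR adjusted p = 0.019).

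Pmvk, phosphomevalonate kinase (ENSMUSG00000027952, chr3:89454541-89469013, plus strand), stood at 64.9, 66.2, 65.6 and 59.7 CPM across Ctrl 1 to 4 and at 45.1, 48.2, 43.6 and 47.3 CPM across the mutants. Both groups were tight, with coefficients of variation of 4.66% and 4.51%, and a clear space lay between them. Pmvk fell from a mean of 64.1 ± 2.99 CPM to 46.0 ± 2.08 CPM (n = 4 a group, SD; log2 fold change -0.48 ± 0.05; edgeR adjusted p = 0.000368), or 71.8% of Ctrl. In the 5 female libraries the size was alike and the call ended (log2 -0.50, edgeR adjusted p = 0.0553).

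Mvd, the diphosphomevalonate decarboxylase (ENSMUSG00000006517, chr8:122433601-122443422, minus strand), stood at 146, 129, 129 and 119 CPM across Ctrl 1 to 4 and at 102, 99.7, 103 and 105 CPM across the mutants. Ctrl 1 stood above the other controls, and the mutants lay within a few CPM of one another. Mvd fell from a mean of 131 ± 11.3 CPM to 102 ± 1.99 CPM (n = 4 a group, SD; log2 fold change -0.35 ± 0.06; edgeR adjusted p = 0.00387), or 78.2% of Ctrl.

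The enzymes at the end of the arm handle the isoprenoid diphosphates. Idi1, the isopentenyl-diphosphate isomerase (ENSMUSG00000058258, chr13:8885501-8892451, plus strand), stood at 623, 561, 549 and 537 CPM across Ctrl 1 to 4 and at 373, 397, 379 and 315 CPM across the mutants. As for Hmgcs1, CNP-Cdk7cKO 4 was the lowest library and Ctrl 1 the highest. Idi1 fell from a mean of 567 ± 38.5 CPM to 366 ± 35.5 CPM (n = 4 a group, SD; log2 fold change -0.63 ± 0.07; edgeR adjusted p = 0.000448), or 64.5% of Ctrl.

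Fdps, farnesyl diphosphate synthase (ENSMUSG00000059743, chr3:89093588-89101959, minus strand), stood at 475, 433, 447 and 425 CPM across Ctrl 1 to 4 and at 275, 272, 282 and 288 CPM across the mutants. The mutants were nearly level with one another, and every control was far above them. Fdps fell from a mean of 445 ± 22.1 CPM to 279 ± 7.20 CPM (n = 4 a group, SD; log2 fold change -0.67 ± 0.04; edgeR adjusted p = 2.51e-05), or 62.7% of Ctrl. It was the member with the smallest standard error and ranked 6 by p among the 15056 tested genes. Among the members the lowest estimated count in any library was 872 (Pmvk in CNP-Cdk7cKO 1) and the highest 33467 (Hmgcs1 in Ctrl 3).

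Per kilobase of annotated exon, the order of mean levels in Ctrl was Hmgcs1 (352 CPM per kb), Idi1 (162), Fdps (106), Acat2 (83.7), Mvd (70.3), Pmvk (37.4) and Mvk (36.7). Within that order Acat2 overlapped both Fdps and Mvd across the control libraries, and Pmvk overlapped Mvk. In CNP-Cdk7cKO the means were 203 for Hmgcs1, 104 for Idi1, 66.4 for Fdps, 55.0 for Mvd, 49.1 for Acat2, 30.3 for Mvk and 26.9 for Pmvk. Acat2 (46.9 to 50.2 CPM per kb) then lay below Mvd (53.6 to 56.2) in all libraries, and Mvk (27.8 to 31.7) overlapped Pmvk (25.4 to 28.1). Hmgcs1, the enzyme that makes HMG-CoA, was the most abundant member per kilobase in both groups. The length used joins the exons of all annotated transcripts of a gene, not only those expressed, so the order can depend on the annotation.

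Whether members changed by unequal amounts was tested with the log2 ratio of each member to the preceding one, in 6 pairs, by two-sided exact permutation over libraries. The smallest p that 4 against 4 libraries allows is 0.0286. Mvk over Hmgcs1 was higher in CNP-Cdk7cKO by 0.53 (exact permutation p = 0.0286, and 0.0857 adjusted over the 6 pairs), from -4.04 ± 0.11 to -3.50 ± 0.33 (SD, n = 4), and the groups did not overlap. Idi1 over Mvd was lower in CNP-Cdk7cKO by a log2 difference of -0.28 (exact permutation p = 0.0286, adjusted 0.0857), from 2.12 ± 0.04 to 1.83 ± 0.17, again with no overlap. These are the entry to and the exit from the middle of the arm.

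The other neighbouring pairs overlapped between the groups. Pmvk over Mvk differed by -0.20 and Mvd over Pmvk by 0.13 (exact permutation p = 0.0857, adjusted 0.129 for each). Hmgcs1 over Acat2 differed by -0.08 and Fdps over Idi1 by -0.04 (exact permutation p = 0.714, adjusted 0.714 for each). After adjustment no pair passed 0.05. With a smallest possible p of 0.0286, none could pass unless most of the 6 pairs separated fully, so this does not show equal change. Without Ctrl 2 or CNP-Cdk7cKO 4 the Hmgcs1 over Acat2 difference was 0.04 or 0.03, and without CNP-Cdk7cKO 2 the Fdps over Idi1 difference was 0.02.

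**Figure D3:**
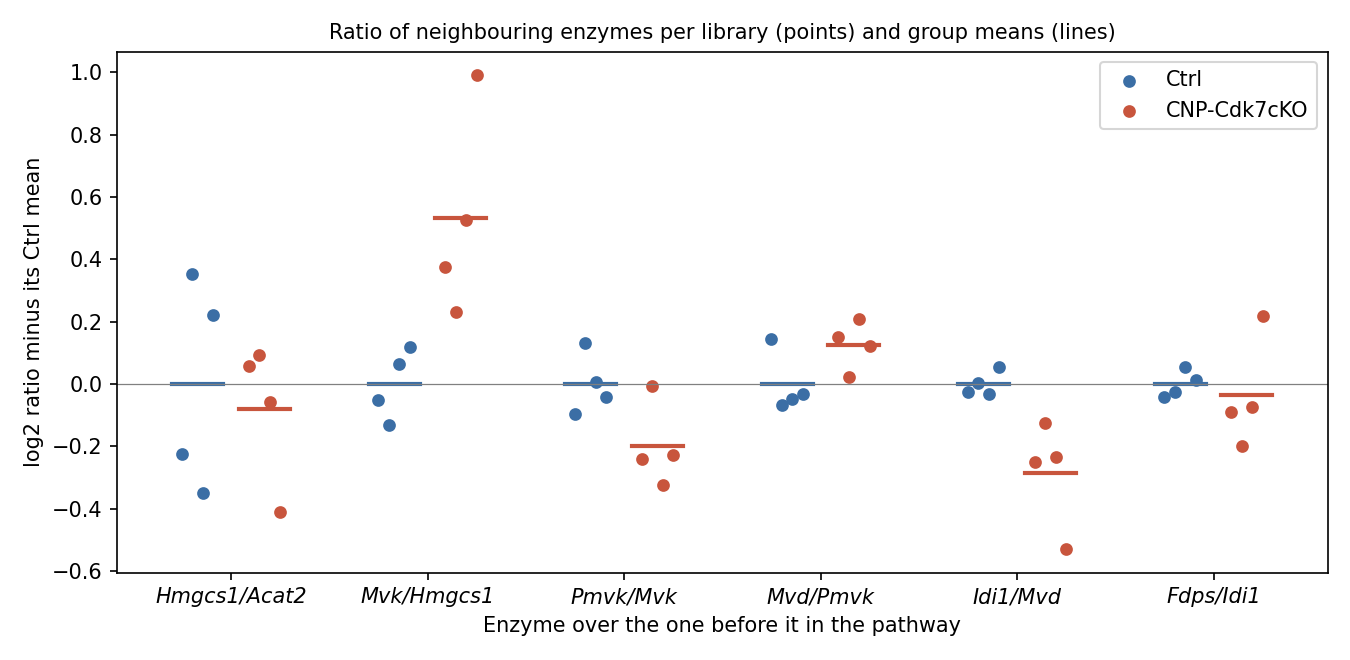
Log2 ratio of each member to the preceding one, minus its Ctrl mean (y axis), for 6 pairs in pathway order; points are libraries and short lines group means. The groups separate for Mvk over Hmgcs1 (0.53 higher in CNP-Cdk7cKO) and for Idi1 over Mvd (-0.28).

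Library by library the members did not share one order. Ctrl 1 held the highest Ctrl value in 6 of the 7 (Pmvk was highest in Ctrl 2), and Ctrl 4 the lowest in 6 (Mvk was lowest in Ctrl 2). Ctrl 1 was also the only female control and had the lowest summed muscle markers of the controls, while Ctrl 4 had the highest. With the muscle markers as a covariate all 7 members were still called lower by edgeR, where 1.22% of all tested genes were, and with Xist as a covariate 6 of 7 were, against 1.11% of all. In the 5 female libraries, where Ctrl 1 stands alone and is assumed to vary like the mutants, 5 of 7 were called lower, against 0.485% of all. With the adipocyte markers as a covariate 7 of 7 were, against 6.44% of all. Every member kept a negative log2 fold change in those fits. As all mutants were female, the Xist and female-only comparisons lean on Ctrl 1. The muscle comparison does too, since among the controls only Ctrl 1 (646 CPM) lay within the mutants' summed muscle markers (117 to 797 CPM). The parts of sex and of muscle content therefore cannot be separated from that of the genotype. Of the fibroblast and perineurial markers 2 of 10 rose, and of the macrophage markers 5 of 9, against 5.07% of all tested genes. Their part was not tested.

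Within the mutants CNP-Cdk7cKO 4 held the lowest value of Acat2, Hmgcs1 and Idi1 and the highest value of Mvk, Mvd and Fdps. Its Hmgcs1 level lay 0.80 below the gene's mean over all 8 libraries on the log2 scale, against 0.35 for CNP-Cdk7cKO 3, the next lowest, and its Idi1 level 0.53 below. Leaving out each library in turn gave 7 of 7 members called lower every time, where edgeR called 4.29 to 5.64% of tested genes lower. In those fits the log2 fold change of Hmgcs1 ran from -0.85 to -0.68, and that of Acat2 from -0.89 to -0.63.

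Because pan-Schwann markers also fell, each member was set against their mean log2 level, which differed by -0.38 between the groups. Relative to these 8 markers, Hmgcs1 was lower by a log2 difference of -0.43, Fdps of -0.29 and Idi1 of -0.26, each without overlap (exact permutation p = 0.0286 for each). Over all tested genes 0.870% lay wholly lower relative to the same markers and 60.5% wholly higher, so most genes with separate groups shift up on this scale. Acat2 differed by -0.35 (exact permutation p = 0.171), Pmvk by -0.10 (p = 0.229), Mvk by 0.10 (p = 0.171) and Mvd by 0.03 (p = 0.629), and in these 4 the groups overlapped. Single libraries moved these 4 differences: Acat2 was at -0.22 without Ctrl 3, Pmvk at -0.064 without Ctrl 3 and -0.051 without CNP-Cdk7cKO 3, and Mvk at 0.057 without CNP-Cdk7cKO 4. Mvd was at 0.047 without Ctrl 1, 0.046 without Ctrl 3, 0.043 without CNP-Cdk7cKO 2 and 0.048 without CNP-Cdk7cKO 3, and it turned to -0.013 without Ctrl 4 and -0.0061 without CNP-Cdk7cKO 4. These exact p-values, for 7 members, are not adjusted.

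The choice of marker changed that picture. Against Sox10 alone, the Schwann lineage transcription factor, which did not pass the test itself (log2 -0.14, edgeR adjusted p = 0.12), all 7 members were lower without overlap. The log2 differences were -0.67 for Hmgcs1, -0.59 for Acat2, -0.53 for Fdps, -0.49 for Idi1, -0.33 for Pmvk, -0.21 for Mvd and -0.13 for Mvk (exact permutation p = 0.0286 for each). Relative to Sox10, 2.64% of all tested genes lay wholly lower and 21.4% wholly higher. Sox10 had the highest log2 fold change of the 8 markers, which ran from -0.81 to -0.14. Differences against it are therefore lower than against the mean of the 8. The sign for Mvk and Mvd was positive against the 8 markers and negative against Sox10.

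Other genes of the pathway were taken from lists chosen by function, with earlier results of these data known. In the sterol arm, which turns farnesyl diphosphate into cholesterol, 11 of 13 genes fell and none rose, and their median log2 value was -0.39, where 6.60% of all tested genes fell and 5.07% rose. The examples with the smallest p were Lss, lanosterol synthase (-0.83, edgeR adjusted p = 2.51e-05), Cyp51, lanosterol demethylase (-0.66, edgeR adjusted p = 4.25e-05), Msmo1 (-0.56, edgeR adjusted p = 9.87e-05) and Tm7sf2 (-0.51, edgeR adjusted p = 0.000368). Lbr and Dhcr7 did not pass, at -0.18 and -0.19. Their names are given because they were the only members of the list that missed the threshold.

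Supply of cytosolic acetyl-CoA, the substrate of Acat2, was represented by 3 genes, and all 3 fell, against 6.60% of all tested genes. Acss2, which makes acetyl-CoA from acetate, differed by -0.81 (edgeR adjusted p = 9.85e-05), Acly, ATP citrate lyase, by -0.34 (edgeR adjusted p = 0.0067) and Slc25a1, the mitochondrial citrate carrier, by -0.28 (edgeR adjusted p = 0.00768). The calls of Acly and Slc25a1 ended in the female libraries (edgeR adjusted p = 0.153 and 0.0702) and with the muscle covariate (0.12 and 0.0668), and that of Acly also with Xist as a covariate (0.0703).

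Of 7 sterol-sensing genes, which hold or release the SREBP factors, 2 fell and 0 rose, with a median of -0.22, against the same 6.60% and 5.07% of all tested genes. Insig1, which retains SREBP in the endoplasmic reticulum when sterols are plentiful, differed by -0.76 (edgeR adjusted p = 9.85e-05). Srebf2, the SREBP gene best known for sterol synthesis, differed by -0.22 (edgeR adjusted p = 0.00881), a call that ended with Xist (0.119) or muscle markers (0.133) as a covariate and in the female libraries (0.234).

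Genes that use isoprenoids outside sterols serve protein prenylation, ubiquinone and dolichol, and none of them passed. Of these 12 edgeR called 0, where 6.60% of all tested genes fell and 5.07% rose. At those shares few of 12 genes would be called, so the count of 0 does not set them apart from other genes. By edgeR 2 of the 12 had an unadjusted p under 0.05. DESeq2 also called 0 (1 unadjusted) and limma-voom 0 (3 unadjusted). Their median log2 fold change was 0.03, beside -0.63 for the mevalonate arm, a difference that was not tested. Fnta and Fntb, the subunits of protein farnesyltransferase, which consumes the product of Fdps, stood at -0.15 (edgeR adjusted p = 0.102) and -0.08 (edgeR adjusted p = 0.367). Without CNP-Cdk7cKO 4, 1 of the 12 was called higher, Nus1, a dolichol synthesis gene named because it was that call (log2 0.21, edgeR adjusted p = 0.0296).

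Acat1, the mitochondrial thiolase related to Acat2, was at 101 to 112 CPM in Ctrl and 103 to 114 CPM in CNP-Cdk7cKO and did not pass (log2 0.05, edgeR adjusted p = 0.608). Idi2, a second isomerase, had 0 counts in all 8 libraries. The plot of fold changes by list sets the members beside these lists.

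**Figure D4:**
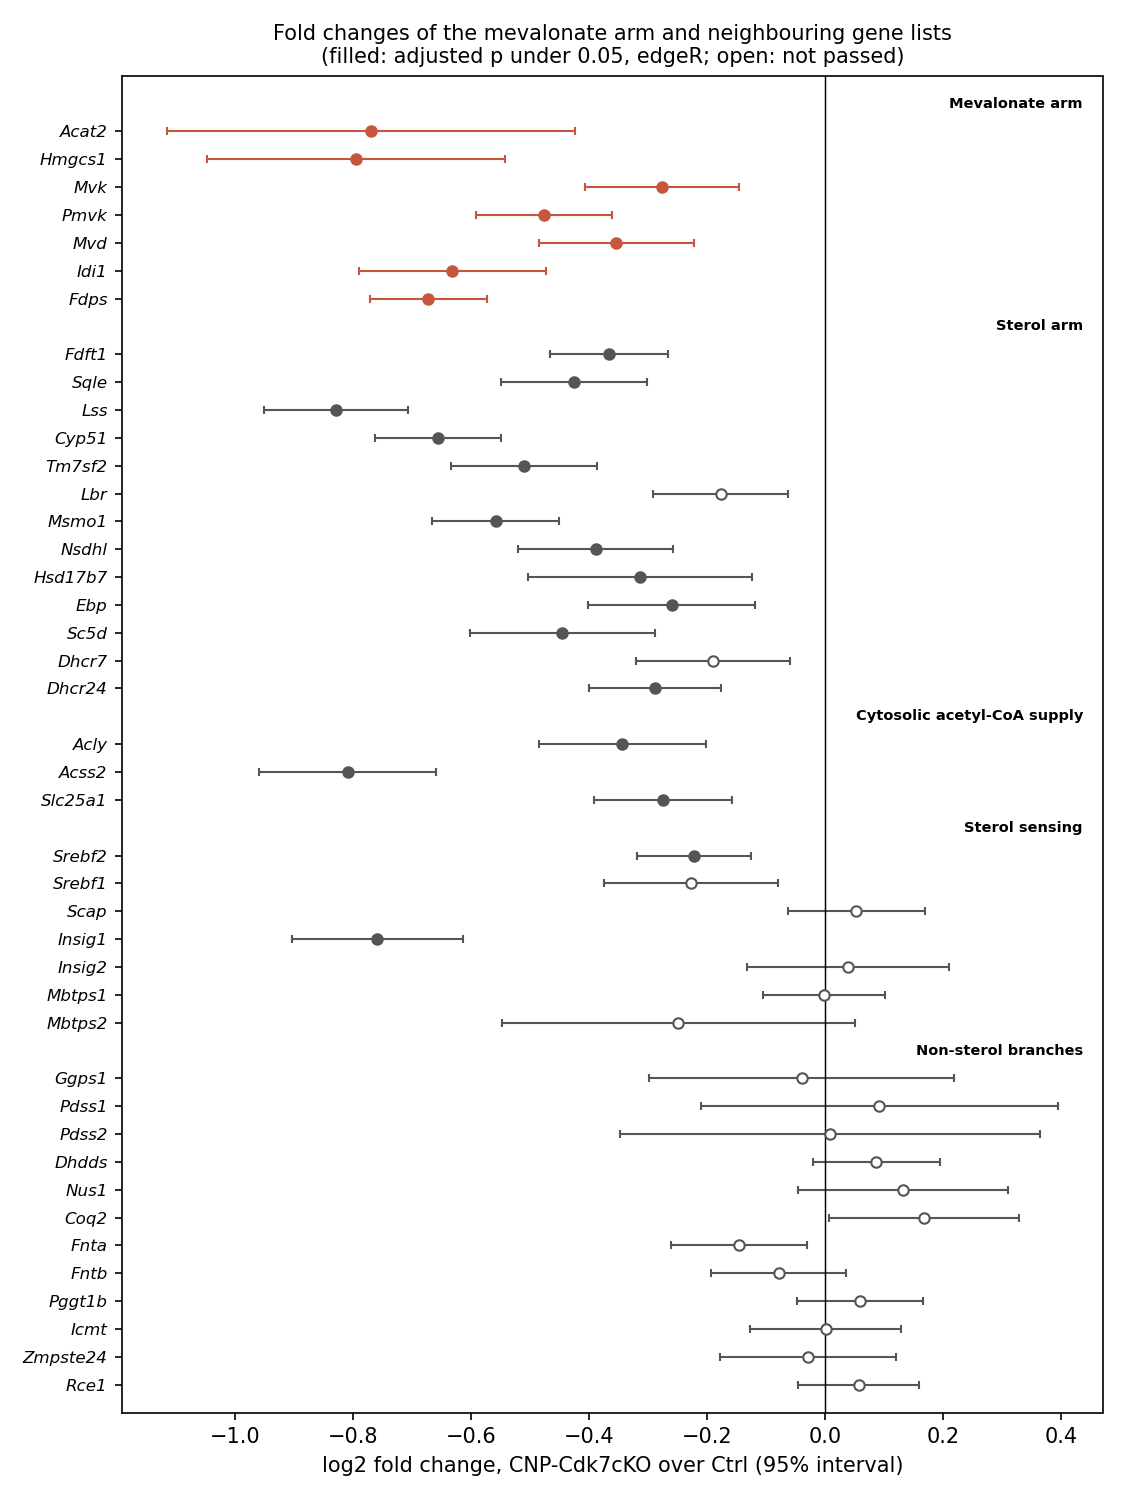
Log2 fold change of CNP-Cdk7cKO over Ctrl (x axis) with 95% intervals for the 7 members (red) and 4 related lists (grey), n = 4 libraries a group; filled points passed the edgeR test at an adjusted p under 0.05. All 7 members and 11 of 13 sterol arm genes are filled and left of 0, while all 12 non-sterol branch genes are open.

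Genes most like the members were sought over the 8 libraries, by the root mean square difference of log2 CPM after each gene was centred on its own mean, among 11289 other genes of at least 5 CPM. Nearest to the mean of the 7 were Msmo1 (0.0472), Aacs, acetoacetyl-CoA synthetase (0.0487), Bdh1, 3-hydroxybutyrate dehydrogenase (0.0523), Cyp51 (0.0569) and the fatty acid desaturase Fads2 (0.0664), where the median candidate was at 0.314. Aacs stood at 319, 287, 299 and 255 CPM across Ctrl 1 to 4 and at 194, 198, 184 and 173 CPM across the mutants, which follows the members' high Ctrl 1 and low Ctrl 4. For single members the nearest were Nsdhl for Mvd (0.0307), Svip for Idi1 (0.0333), 2810468N07Rik for Mvk (0.0426), Plekha4 for Fdps (0.0461) and Elovl6 for Pmvk (0.0557). Acat2 had no neighbour so close, with Aldoc at 0.193. This likeness includes the difference between the groups and the order of libraries within each. Neither the fold changes of these genes nor their high and low libraries are therefore a separate result.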

How the data were processed

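Polyadenylated RNA of 8 sciatic nerve libraries was sequenced with a stranded kit, per the labels' protocols. The authors used STAR and Salmon on GRCm38, per the submitters' processing notes, and deposited estimated counts for each gene; the annotation release, with versions and strand setting, was not given in the sources used here. Rounding to whole numbers changed 8.29% of the values. Of 55487 rows 55141 matched a symbol in the gene name table. Replicates differed beyond counting noise (chi-square per degree of freedom 3.86 to 17.6).

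Genes passing filterByExpr (minimum count 10, minimum total 15; 15056 genes) were scaled by TMM and compared with the quasi-likelihood test (edgeR 4.0.16, R 4.3.3), with no covariate. Adjusted p-values (Benjamini-Hochberg) cover all tested genes, the threshold is 0.05, and limma 3.58.1 and DESeq2 1.42.0 were alternatives. The fit was tested on simulated data of 15056 genes, with 50 planted changes of each size. It recovered 20% of planted 1.25-fold changes, 62% of 1.5-fold, 72% of 2-fold and 86% of 3-fold, and called 8 other genes. Fewer genes were changed there than were called in the data, so these shares may not carry over. Ratios used log2 CPM with a prior count of 2. Gene positions and exon lengths are from GENCODE on GRCm38. Sex was called from Xist and Y-linked genes.

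The members and lists were chosen with earlier results of these data known. Named by rule were all members, their relatives, Cdk7 and Cnp, up to 4 called genes per pathway list by p (or the 2 most abundant if none), and the nearest profiles; some genes under this rule are not reported here. Alternatives were RLE factors, TMM computed after dropping mitochondrial, muscle, adipocyte and erythroid genes, 2 other count filters, DESeq2, limma-voom, the replicate number as a block, Xist, muscle or adipocyte markers as a covariate, female libraries alone, each library left out, a prior count of 0.5 and Sox10 alone.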

Additional observations from a re-analysis of the deposited data

Results flagged for a closer look

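Within a group of 4 libraries, the gap between an extreme library and its neighbour was divided by the group's range and set against Dixon's critical value; 4 of 76 groups passed, and chance passes about 1 in 20. The ratio of Mvd to Pmvk in Ctrl gave 0.83, with Ctrl 1 above the other controls (log2 ratio 1.17 against 0.957 to 0.993). Svip, the nearest profile to Idi1, gave 0.977 in Ctrl, where Ctrl 1 read 107 CPM and the next library 94.7 CPM. Lss gave 0.881 in Ctrl, where Ctrl 4 read 242 CPM and the next library 261 CPM. Cyp51 gave 0.905 in CNP-Cdk7cKO, where CNP-Cdk7cKO 4 read 235 CPM and the next library 249 CPM.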

How the results depend on the processing

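All 7 members were called lower under every refit of all genes but 2, Xist as a covariate (6) and the female libraries alone (5); the prior count and Sox10 alternatives give no such call. The count of all tested genes called moved from 1757 to 243 with Xist, 318 with muscle markers, 114 in the female libraries and 1123 to 1481 when 1 library was left out (1123 without Ctrl 2), and was 1676 with adipocyte markers. The 11 sterol arm calls ran from 8 to 12. The 2 sterol-sensing calls became 1 with Xist, with muscle markers and in the female libraries, and 3 with no count filter, the 1 CPM filter, DESeq2, limma-voom, the replicate block and without Ctrl 4. The 0 non-sterol calls ranged from 0 to 1 over left-out libraries. Against Sox10 alone the members' differences were -0.59 (Acat2), -0.67 (Hmgcs1), -0.13 (Mvk), -0.33 (Pmvk), -0.21 (Mvd), -0.49 (Idi1) and -0.53 (Fdps), so Mvk and Mvd changed sign. Over left-out libraries Mvd relative to the 8 markers ran from -0.013 to 0.048 (-0.013 without Ctrl 4 and -0.0061 without CNP-Cdk7cKO 4), Hmgcs1 over Acat2 from -0.20 to 0.037 (without Ctrl 2; 0.030 without CNP-Cdk7cKO 4) and Fdps over Idi1 from -0.12 to 0.017 (without CNP-Cdk7cKO 2). With the replicate block edgeR called 1608 genes and all 7 members. Same-numbered libraries deviated together by correlations of 0.01 to 0.13. With so few libraries this cannot decide whether the numbers pair the samples, and the labels do not say. For each of these changes the cause was not tested.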

Other observations

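Mmab, which makes the adenosyl form of vitamin B12, starts 209 bases upstream of Mvk on the other strand (GRCm38 chr5:114431034-114444060), and no other member has a protein-coding gene starting within 1000 bases on the other strand. It was looked at after the values of Mvk were seen. Mmab stood at 49.0, 48.0, 45.4 and 45.6 CPM across Ctrl 1 to 4 and at 38.6, 39.0, 43.8 and 41.2 CPM across CNP-Cdk7cKO 1 to 4, with no overlap (log2 fold change -0.21 ± 0.06; edgeR adjusted p = 0.0322).

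The split of Acat2 among the controls was not seen in the tested genes on either side of it, also looked at afterwards. Tcp1, a chaperonin subunit, read 155, 160, 157 and 171 CPM in Ctrl 1 to 4, and Wtap, a subunit of the RNA methylation complex, 72.0, 77.3, 67.6 and 74.8 CPM, where Acat2 read 271, 168, 257 and 156 CPM.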
